A study of Mus musculus with 10 samples.

Results

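Chromatin accessibility was examined at *Nfia*, *Nfib*, *Nfic* and *Nfix*, the 4 nuclear factor I genes, in mouse epicardium and epicardium-derived cells (EPDCs). A peak was assigned to a gene when its summit lay inside the gene or within 50 kb of it on mm10, and a promoter was the sequence within 1 kb of a transcription start site (TSS). Summits from the 9 peak lists were each extended by 250 bp to both sides, and where such windows overlapped the one of highest score was kept, which gave 315 regions at the 4 genes of 184764 in the genome. *Nfia* (chr4:97772734-98118874, plus strand) held 104 of them, *Nfib* (chr4:82290173-82705750, minus strand) held 113, *Nfic* (chr10:81396186-81455635, minus strand) held 39 and *Nfix* (chr8:84699876-84800344, minus strand) held 59. Of the 315 regions, 270 were called in at least 2 libraries and entered the tests, and 45 were called in 1 library.

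The study asked how the chromatin of the heart's outer layer changes with maturation and after cells leave that layer. Bulk ATAC-seq, in which a transposase cuts open chromatin, gave 9 libraries. At E11.5 and at E17.5 the epicardium was sampled 3 times each, and EPDCs came from 1 sample at E12.5 and 2 samples at E13.5. All embryos were Rosa26tdTomato;Wt1CreERT2/+ on C57BL/6J and all were given tamoxifen at E9.5, so that cells with *Wt1*-driven Cre, and their descendants, carried tdTomato. Epicardial cells were sorted as CD31-tdTomato+PDPN+ and EPDCs as CD31-tdTomato+PDPN-, from pooled littermate hearts (6 per sample at E11.5 and 4 at E17.5). The list of E13.5 EPDC sample 2 joined 2 technical replicates and was counted as 1 library. No EPDC library matched an epicardial library in stage, so population and stage cannot be told apart in that comparison.

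Nuclear factor I proteins are DNA-binding factors that act as dimers on a palindrome of TTGGC and GCCAA, and bind a single TTGGCA half-site more weakly. They turn genes on or off according to context and are best known for late steps of differentiation. NFIA and NFIB direct gliogenesis in the brain, NFIB is needed for maturation of the lung, NFIX takes part in the switch to fetal muscle and in neural stem cells, and NFIC is needed for tooth root formation. All 4 genes are transcribed from several start sites and have long introns, in which distal regulatory elements can lie.

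Each region was measured in each library by its rank percentile, the position of its strongest summit among all summits of that list when ordered by -log10 p. A value of 0 means that no summit was called there, which does not show closed chromatin. Regions are named by their distance from the start of the gene's first-numbered transcript (Nfia-201, Nfib-201, Nfic-201 or Nfix-201), with minus for upstream. The lists held 94909 to 142743 summits, and the background at a position was 2.07 to 4.26 fragments in 8 libraries and 10.9 in E13.5 EPDC sample 2. Mitochondrial and unplaced summits occurred in the 3 EPDC lists and in no epicardial list, a difference that cannot be told apart from the population. The *Wt1* promoter ranked between 90.4 and 97.5 in the 9 libraries, while that of *Upk3b*, a mesothelial surface protein, ranked from 97.0 to 99.2 in epicardium and from 22.8 to 73.6 in EPDCs. Of the other epicardial promoters, those of *Tbx18* and *Tcf21* ranked at 89.6 or above in all 9 libraries, that of *Msln* was called at E17.5 alone and that of *Aldh1a2* was at 0 in 1 E11.5 library. Mesenchymal promoters were called at 5 of 6 markers at E11.5 and at 6 of 6 in the other groups (summed percentiles of 384 to 413 at E11.5, 462 to 471 at E17.5 and 474 to 505 in EPDCs). *Postn*, which encodes a matrix protein of activated fibroblasts, was at 0 at E11.5, between 43.5 and 50.2 at E17.5 and between 71.7 and 81.8 in EPDCs. The other mesenchymal promoters did not share this course. *Pdgfra* ranked from 63.4 to 69.9 at E11.5, from 71.2 to 77.0 at E17.5 and from 55.5 to 64.7 in EPDCs. *Col3a1* ranked from 42.7 to 70.9, from 73.7 to 75.7 and from 73.5 to 87.5. *Pdgfrb*, *Col1a1* and *Tnc* ranked from 84.9 to 97.1 in the 9 libraries. Promoters of *Pecam1*, *Cdh5*, *Tie1* and *Emcn*, which mark endothelium, were at 0 in all 9 libraries, leaving 2 of 6 endothelial promoters called in each. Cardiomyocyte promoters were called at 3 to 4 of 6 markers at E11.5, 2 to 3 at E17.5 and 1 in EPDCs (summed percentiles 114 to 139, 94.6 to 126 and 78.0 to 83.6), with *Myh6* and *Myl2* at 0 throughout. Of 6 blood markers, 2 were called at both epicardial stages and 1 to 2 in EPDCs (sums of 123 to 140, 139 to 157 and 60.5 to 90.7), with *Ptprc* and *Spi1* at 0 throughout. The part of other cells in the results below was not tested. In bulk samples, fewer cells with an open region and less opening per cell cannot be told apart.

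The sequences of 7 regions away from promoters are shown because some of the largest differences between the groups fell on them. Each is the plus strand of GRCm38.p6 from 100 bases before to 100 bases after the region's centre. Capitals mark exact matches on either strand to 6 sets of letters. The nuclear factor I half-site was searched as TTGGCA. For AP-1, the dimer of Fos and Jun proteins, the letters were TGANTCA. For TEAD factors of the Hippo pathway they were GGAATG. Sites of GATA factors were searched as AGATAA. An E-box, bound by helix-loop-helix factors such as TCF21, was searched as CAGCTG. T-box factors were represented by AGGTGTGA.
Nfic +2.3 kb: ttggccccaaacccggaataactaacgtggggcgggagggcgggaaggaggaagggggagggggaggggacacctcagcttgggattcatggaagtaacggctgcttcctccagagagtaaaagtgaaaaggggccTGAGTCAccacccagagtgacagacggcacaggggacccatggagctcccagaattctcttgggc
Nfib -155.1 kb: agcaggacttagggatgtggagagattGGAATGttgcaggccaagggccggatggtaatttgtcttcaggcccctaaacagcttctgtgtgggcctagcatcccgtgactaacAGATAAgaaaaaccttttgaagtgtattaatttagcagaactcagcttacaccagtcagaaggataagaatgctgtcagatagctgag
Nfix +144.4 kb: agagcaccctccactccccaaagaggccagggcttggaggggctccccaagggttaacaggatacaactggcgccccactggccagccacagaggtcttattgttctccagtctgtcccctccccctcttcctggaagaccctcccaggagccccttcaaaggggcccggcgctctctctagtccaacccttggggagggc
Nfib +253.1 kb: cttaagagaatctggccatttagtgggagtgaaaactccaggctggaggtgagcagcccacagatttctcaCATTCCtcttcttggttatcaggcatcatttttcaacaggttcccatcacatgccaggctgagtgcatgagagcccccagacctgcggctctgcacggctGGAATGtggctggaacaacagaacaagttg
Nfix +87.6 kb: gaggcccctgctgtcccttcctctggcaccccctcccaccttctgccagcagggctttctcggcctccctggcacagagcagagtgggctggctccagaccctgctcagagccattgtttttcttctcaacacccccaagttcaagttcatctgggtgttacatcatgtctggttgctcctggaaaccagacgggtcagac
Nfix +55.9 kb: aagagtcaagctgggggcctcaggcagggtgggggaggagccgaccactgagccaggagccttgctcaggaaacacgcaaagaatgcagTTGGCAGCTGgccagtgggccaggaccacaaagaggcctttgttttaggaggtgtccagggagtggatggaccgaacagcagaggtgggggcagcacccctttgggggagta
Nfia +353.1 kb: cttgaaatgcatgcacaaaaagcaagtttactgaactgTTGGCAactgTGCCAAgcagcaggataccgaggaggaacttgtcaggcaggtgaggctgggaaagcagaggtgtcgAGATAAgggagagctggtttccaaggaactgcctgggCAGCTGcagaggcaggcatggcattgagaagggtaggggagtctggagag
The first, chr10:81424747-81424947 in an *Nfic* intron, had the largest gain at E17.5 away from promoters of other genes, and the second, chr4:82660259-82660459 in an *Nfib* intron, had the largest loss. The third, chr8:84655670-84655870 downstream of *Nfix*, had the largest gain in EPDCs among regions free of exons, and the fourth, chr4:82252098-82252298 downstream of *Nfib*, had the largest loss. Next come chr8:84712473-84712673 and chr8:84744097-84744297, a pair of regions in *Nfix* introns that moved in opposite directions between E11.5 and E17.5, and chr4:98130806-98131006 downstream of *Nfia*, which holds 2 half-sites on opposite strands. In the *Nfix* +55.9 kb sequence the half-site and the E-box overlap. A match describes the letters only.

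The full palindrome, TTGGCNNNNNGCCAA, was present in 2 of the 315 regions (0.635%), both in introns of *Nfia*, and in 0.164% of all 184764 regions. Those 2 regions are shown for that reason and were chosen after the search. The first of the sequences below (chr4:97875988-97876188) includes the palindrome, and the second (chr4:97868979-97869179) is the centre of a region whose palindrome lies outside the stretch printed, so its capitals mark half-sites.
Nfia +98.3 kb: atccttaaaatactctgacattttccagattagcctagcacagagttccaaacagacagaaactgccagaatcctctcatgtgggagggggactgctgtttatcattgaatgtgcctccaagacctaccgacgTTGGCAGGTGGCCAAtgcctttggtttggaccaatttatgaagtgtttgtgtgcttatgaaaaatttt
Nfia +91.3 kb: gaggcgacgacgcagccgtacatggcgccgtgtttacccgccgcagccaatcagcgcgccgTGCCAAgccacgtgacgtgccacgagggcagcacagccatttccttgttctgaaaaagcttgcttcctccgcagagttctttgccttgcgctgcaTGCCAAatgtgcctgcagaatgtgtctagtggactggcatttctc
The *Nfia* +91.3 kb region was called in all 9 libraries, with percentiles of 83.0, 84.6 and 84.7 at E11.5, 82.0, 89.1 and 88.0 at E17.5, and 80.4, 81.5 and 85.3 in EPDCs. Its groups overlapped in both comparisons and neither passed, although E17.5 was 6.76 points higher and passed with equal peak numbers (adjusted p = 0.00515), against 2.22 points (adjusted p = 0.470) without them. The *Nfia* +98.3 kb region ranked at 31.3, 56.5 and 49.4 at E11.5, at 0, 34.8 and 0 at E17.5, and at 15.8, 37.5 and 35.3 in EPDCs. It fell at E17.5 by 34.1 points (SE 11.4, adjusted p = 0.0450), although the libraries overlapped and the call was lost with equal peak numbers (adjusted p = 0.106). Half-sites were present in 29.5% of the regions at the 4 genes against 28.5% of all regions.

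At the level of whole genes, *Nfia* had more summits in EPDCs than in epicardium. The share of each list that fell in the *Nfia* window was 5.53, 5.46 and 5.08 summits per 10000 at E11.5, 6.43, 5.94 and 6.80 at E17.5, and 7.25, 7.34 and 7.05 in EPDCs. Every EPDC library lay above all 6 epicardial ones, a difference of 1.35 per 10000 (two-sided exact permutation test, p = 0.0238, where the smallest possible p is 0.0119), and 6.01% of all genes had EPDC libraries that were all higher. At *Nfib* the values were 6.70, 6.66 and 7.18 at E11.5, 7.06, 8.05 and 7.91 at E17.5, and 7.16, 6.79 and 6.68 in EPDCs, and the groups overlapped. *Nfic* gave 2.60, 2.66 and 2.39 at E11.5, 3.48, 3.05 and 2.79 at E17.5, and 3.53, 2.98 and 2.43 in EPDCs. For *Nfix* the values were 4.10, 3.50 and 4.13 at E11.5, 4.53, 4.14 and 4.19 at E17.5, and 5.29, 4.65 and 3.79 in EPDCs. All 3 E17.5 libraries exceeded all E11.5 libraries at *Nfia*, *Nfic* and *Nfix* (exact permutation p = 0.10 for each, the smallest that 3 against 3 allows), a state reached by 28.2% of all genes. The EPDC difference at *Nfix* was 0.478 per 10000 (exact permutation p = 0.214) and became 0.871 (exact permutation p = 0.0357) without E13.5 EPDC sample 2. By summits per kb, the 4 genes stood between the 91.9 and the 99.5 percentile of 21911 protein-coding genes.

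**Figure D1:**
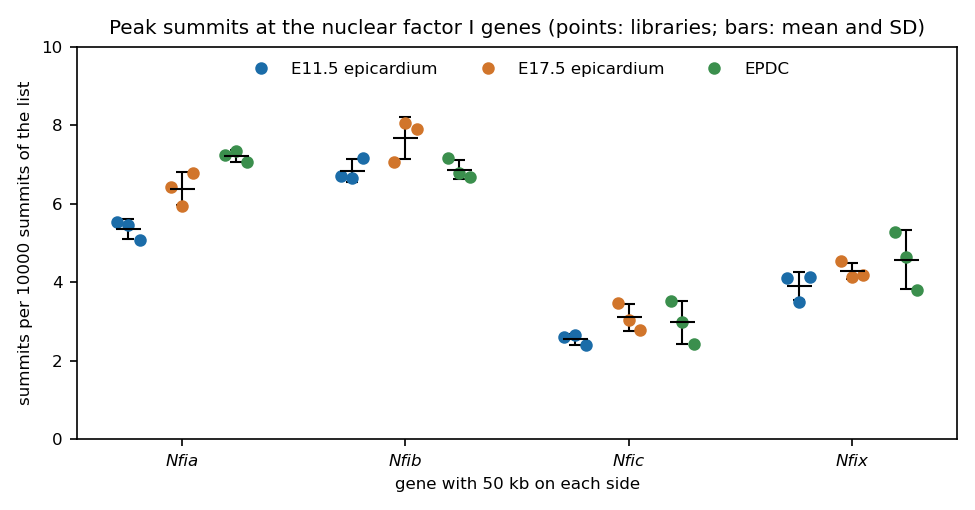
Summits in each gene and 50 kb on each side, per 10000 summits of the list (y axis), for 3 libraries of E11.5 epicardium, E17.5 epicardium and EPDCs; points are libraries and bars are mean and SD. The EPDC points of Nfia, from 7.05 to 7.34, lie above all its epicardial points, whereas the groups of Nfib overlap.

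The order of genes was the same in the E11.5 and E17.5 means, with *Nfib* highest (6.85 ± 0.291 and 7.67 ± 0.537, SD, n = 3), then *Nfia* (5.36 ± 0.244 and 6.39 ± 0.429), *Nfix* (3.91 ± 0.356 and 4.29 ± 0.212) and *Nfic* (2.55 ± 0.140 and 3.11 ± 0.346). Neighbours in that order did not overlap at either stage. In EPDCs *Nfia* (7.22 ± 0.149) and *Nfib* (6.87 ± 0.252) did not differ beyond the range of their libraries, which overlapped. The rate rises with the length of the window, 446 kb for *Nfia* and 516 kb for *Nfib* against 159 kb for *Nfic* and 200 kb for *Nfix*, so it ranks the genes by peaks held and not by accessibility.

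Each of the 4 genes had a promoter region called in all 9 libraries, and differences at promoters were found at *Nfib*, *Nfic* and *Nfix*. Of 18 promoter regions, 16 were called in at least 2 libraries. Between E11.5 and E17.5, 3 rose and 2 fell, where 9.14% and 24.9% of all 154147 regions tested did. In EPDCs against epicardium, 2 rose and 1 fell, where 18.8% and 22.1% of all regions did. With 16 regions these counts are too few to set against those shares.

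The *Nfia* promoter with the highest rank was chr4:97772045-97772545, 439 bp before the start of Nfia-208, a transcript with an incomplete 3′ end. It ranked at 96.2, 96.5 and 97.0 at E11.5, at 94.9, 95.5 and 93.2 at E17.5, and at 95.5, 94.6 and 94.4 in EPDCs. These values rested on 233 to 811 fragments at the summit. The E17.5 libraries were all lower than the E11.5 libraries, but by 2.03 points, which did not pass (SE 0.828, adjusted p = 0.0867), and which passed when intervals were matched (adjusted p = 0.0473) or when only regions called in all 9 libraries were tested (adjusted p = 0.0460). At the start shared by most *Nfia* transcripts (chr4:97777544-97778044) the percentiles were 20.4, 60.8 and 47.3 at E11.5, 37.7, 50.7 and 59.3 at E17.5, and 47.9, 52.9 and 58.4 in EPDCs, with wide overlap. No *Nfia* promoter passed in either comparison under the main setting, although 2 others rose in EPDCs with equal peak numbers (adjusted p = 0.0342 at *Nfia* -0.5 kb and 0.0409 at *Nfia* -4.5 kb). The first also passed by fold enrichment, among regions called in all 9 libraries and without E17.5 replicate 3 (adjusted p of 0.0399 to 0.0498), and the second on the log2 score (adjusted p = 0.0419). A long noncoding gene, *E130114P18Rik*, overlaps these regions, so accessibility there cannot be given to *Nfia* alone.

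*Nfib* has one start region near transcripts 201 to 206 and a second, 200.4 kb upstream, that begins Nfib-212, a transcript annotated with an incomplete 3′ end. The upstream one (chr4:82705429-82705929) was the promoter that changed most. It ranked at 92.0, 90.3 and 91.3 at E11.5, at 3.97, 35.5 and 19.3 at E17.5, and at 84.2, 73.8 and 78.1 in EPDCs. Fragments at the summit numbered at least 165 in each E11.5 library against 10, 27 and 19 at E17.5, and 117, 97 and 235 in EPDCs. It fell at E17.5 by 71.6 points (SE 7.10, adjusted p = 9.81e-05), with no overlap between stages. In EPDCs it was 23.3 points above the epicardial mean (SE 6.15, adjusted p = 0.0153), a call lost without the E12.5 EPDC sample (20.6 points, adjusted p = 0.0626) and when ranked by fold enrichment. EPDC values lay between those of the 2 epicardial stages.

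The *Nfib* start near the other transcripts kept a high rank. At chr4:82505524-82506024 the percentiles were 83.9, 88.0 and 86.2 at E11.5, 76.6, 83.97 and 81.4 at E17.5, and 75.8, 86.0 and 84.8 in EPDCs, and neither comparison passed. The neighbouring region, 505 bp before Nfib-203, fell by 6.20 points at E17.5 (adjusted p = 0.0330), and this call was lost without any of 5 of the 6 epicardial libraries, E11.5 replicate 2 being the exception (adjusted p of 0.0578 to 0.0932). It was also lost with equal peak numbers (-3.54 points, adjusted p = 0.443) and on the log2 score (adjusted p = 0.424). The stricter q, fold enrichment, matched intervals and regions called in all 9 libraries ended it as well (adjusted p of 0.0595 to 0.0804). The stage difference at the start near the other transcripts was -5.38 points (SE 2.98, adjusted p = 0.194).

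*Nfic* had its largest promoter difference in EPDCs. The region at the starts of Nfic-201, Nfic-202 and Nfic-203 (chr10:81426849-81427349) ranked at 38.4, 36.6 and 30.3 at E11.5, then at 50.7, 64.0 and 49.6 at E17.5. In EPDCs it ranked at 0, 0 and 9.67, below all 6 epicardial libraries. The EPDC difference was -41.7 points (SE 5.47, adjusted p = 0.000377). The gain of 19.7 points at E17.5 (SE 6.31, adjusted p = 0.0380) was lost when any of 5 libraries was left out, E11.5 replicates 2 and 3, E17.5 replicates 2 and 3 or E13.5 EPDC sample 1 (adjusted p of 0.0504 to 0.111). Its fold enrichment over local background was low, 1.61 to 3.57 where called, and ranking by fold enrichment ended both calls (adjusted p = 0.203 for stage and 0.0625 for EPDCs). The other *Nfic* start, 470 bp into Nfic-204, ranked from 60.5 to 80.9 in the 9 libraries and did not pass in either comparison. With equal peak numbers its stage difference went from 8.96 to 19.03 points and passed (adjusted p = 0.0179), as it did on the log2 score (adjusted p = 0.0294), and by fold enrichment its EPDC difference passed (adjusted p = 0.00898). When intervals were matched both differences changed sign without passing, to -3.85 points for stage (adjusted p = 0.525) and -0.265 for EPDCs (adjusted p = 0.957). The 250 bases before the *Nfic* start are given from RefSeq (GRCm38.p6, chr10:81427174-81427423, minus strand), since 2 of the 3 EPDC lists have no summit beside them, and hold none of the motifs searched.
Nfic promoter: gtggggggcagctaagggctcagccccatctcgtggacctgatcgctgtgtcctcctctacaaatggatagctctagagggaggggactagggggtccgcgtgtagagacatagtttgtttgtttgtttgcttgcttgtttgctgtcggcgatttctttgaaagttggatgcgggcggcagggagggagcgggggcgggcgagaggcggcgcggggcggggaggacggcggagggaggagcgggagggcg

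*Nfix* has outer starts near Nfix-201, Nfix-202 and Nfix-205 and, inside the gene, near Nfix-203 and Nfix-204. Gains were found before the internal start. The region 368 bp before Nfix-203 (chr8:84774487-84774987) ranked at 29.2, 30.3 and 39.8 at E11.5, at 58.8, 56.8 and 67.3 at E17.5, and at 54.5, 76.8 and 78.9 in EPDCs. It rose by 27.9 points at E17.5 (SE 7.16, adjusted p = 0.0147) and by 23.0 points in EPDCs (SE 6.20, adjusted p = 0.0169). Stages did not overlap, whereas EPDC and E17.5 values did. The stage call was lost without E11.5 replicate 2 (adjusted p = 0.0516) or E17.5 replicate 3 (0.0605), and the EPDC call without E13.5 EPDC sample 1 (0.0834) or sample 2 (0.0721). The region 875 bp before Nfix-203 ranked at 2.35, 0 and 1.98 at E11.5, at 42.6, 39.5 and 34.9 at E17.5, and at 6.39, 40.7 and 32.5 in EPDCs. It rose by 37.6 points at E17.5 (SE 8.42, adjusted p = 0.00746), without passing with equal peak numbers (adjusted p = 0.0762). All 3 of these calls were lost when whole peak intervals rather than summits were matched to regions.

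Before Nfix-202, at the outer start (chr8:84800253-84800753), the percentiles were 62.3, 0 and 57.1 at E11.5, 77.8, 76.9 and 75.3 at E17.5, and 73.6, 74.3 and 75.7 in EPDCs. The value of 0 in E11.5 replicate 2 came from the placing of the summit, since an interval of that list covered the region with a percentile of 65.2. The difference of 36.8 points did not pass (SE 13.7, adjusted p = 0.0674), and without E11.5 replicate 2 it was 16.9 points and passed (adjusted p = 0.00292). With intervals matched it was 12.8 points and passed (adjusted p = 0.0234). It also passed with equal peak numbers (adjusted p = 0.04996), on the log2 score (0.0414) and without E11.5 replicate 1 (0.0382).

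**Figure D2:**
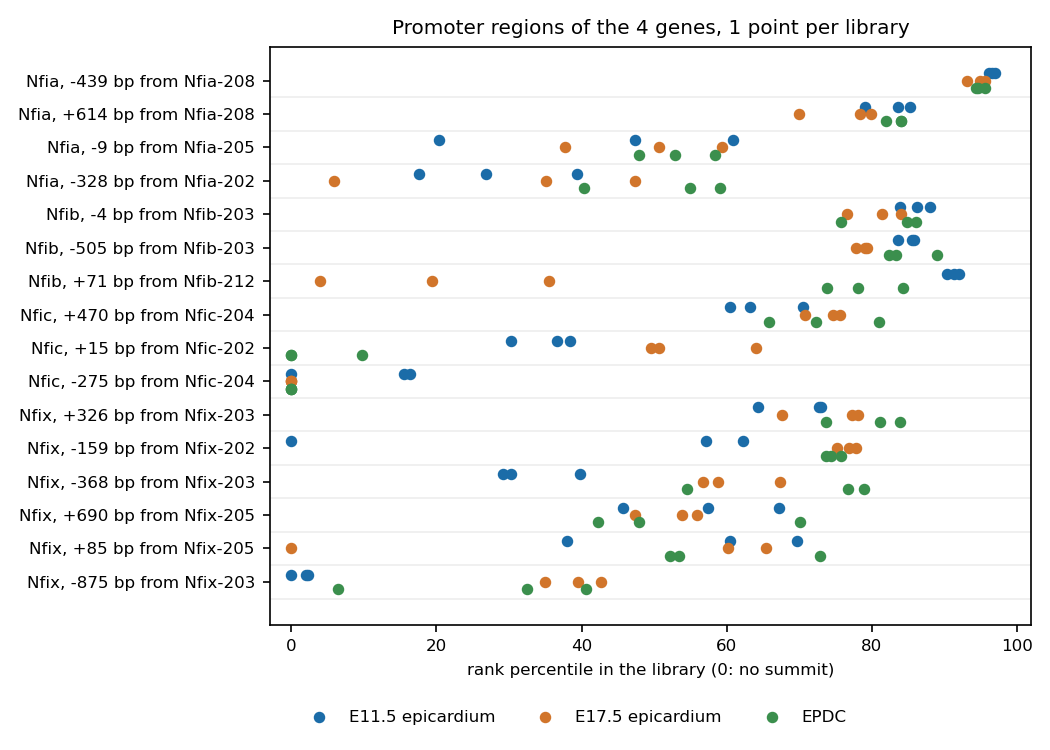
Rank percentile (x axis, 0 where no summit was called) of the 16 promoter regions called in at least 2 libraries, 1 point per library, coloured by group; rows give the distance from the nearest start. The E17.5 points at Nfib-212 lie between 3.97 and 35.5, away from the other 6, and the EPDC points at Nfic-202 lie between 0 and 9.67.

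From E11.5 to E17.5, differences at the 4 genes ran in both directions, under the main setting in shares near those of all regions. Of 270 regions, 27 rose (10%, against 9.14% of all 154147 regions tested) and 60 fell (22.2%, against 24.9%). The lists held 94909 to 127933 summits at E17.5 and 119386 to 142743 at E11.5, and the median difference over all regions was -3.95 points (-2.85 for EPDCs), against which each difference is to be read. With equal numbers of top peaks from each list the median became 0 and the split at the 4 genes turned. There 48 rose (17.8%) and 23 fell (8.52%), where 11.8% of all regions rose and 13.9% fell. Under both settings 24 of the rises and 23 of the falls were called. The count of 60 was 35 without E11.5 replicate 2 and 39 without E17.5 replicate 3.

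By gene, 12 regions rose and 23 fell at *Nfia* (13.6% and 26.1% of 88), and 7 and 21 at *Nfib* (7.45% and 22.3% of 94). At *Nfic* 4 rose and 4 fell (12.1% each of 33), and at *Nfix* 4 and 12 (7.27% and 21.8% of 55). Over all regions these shares were 9.14% and 24.9%. With equal peak numbers 17 rose and 10 fell at *Nfia*, 14 and 11 at *Nfib*, 7 and 0 at *Nfic*, and 10 and 2 at *Nfix*. Under the main setting the median difference was 0 at *Nfia* and *Nfix*, -6.30 points at *Nfib* and -0.139 at *Nfic*. Introns held 9 of the rises and 19 of the falls at *Nfia* and 6 and 18 at *Nfib*, where most of the regions lay.

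**Figure D3:**
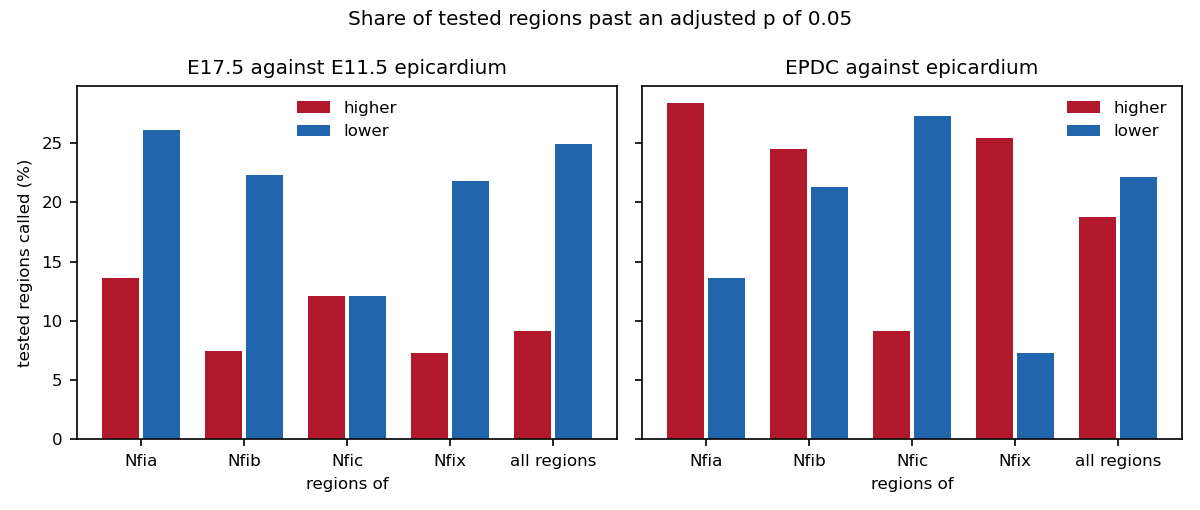
Share of tested regions called higher or lower (y axis, percent) at each gene and over all regions, for both comparisons, at an adjusted p of 0.05. At Nfia and Nfix the EPDC bars for higher (28.4% and 25.5%) exceed those for lower (13.6% and 7.27%), and at Nfic the order is reversed (9.09% and 27.3%).

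The largest fall of all was in an intron of *Nfib*. The *Nfib* -155.1 kb region (chr4:82660109-82660609), printed above, ranked at 73.6, 80.2 and 79.5 at E11.5 and was at 0 in all 3 E17.5 and all 3 EPDC libraries. Its summits held 61, 78 and 67 fragments at 10.1 to 13.0 times the background. It fell by 77.7 points (SE 4.95, adjusted p = 1.79e-05), and lies 45.4 kb downstream of the Nfib-212 start that fell with it. Unlike that start, it was not called in EPDCs.

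*Nfia* had regions called at E11.5 and in EPDCs but in no E17.5 list. The *Nfia* +388.8 kb region (chr4:98166399-98166899), downstream of the gene, ranked at 64.0, 58.2 and 66.3 at E11.5, at 0 in all 3 E17.5 libraries, and at 66.7, 41.3 and 60.1 in EPDCs. It fell by 62.8 points at E17.5 (SE 7.06, adjusted p = 0.000185). The intronic *Nfia* +211.1 kb region (chr4:97988645-97989145) ranked at 55.1, 64.9 and 62.0 at E11.5, at 0 in E17.5, and at 54.2, 20.2 and 40.4 in EPDCs, and fell by 60.7 points (SE 8.35, adjusted p = 0.000551). Another, *Nfia* +321.1 kb (chr4:98098634-98099134), went from 40.1, 65.6 and 76.1 to 0 in every E17.5 library (-60.6 points, SE 9.27, adjusted p = 0.000988), with 64.1, 48.6 and 65.7 in EPDCs.

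Rises at *Nfia* included regions called at E17.5 and in no EPDC list. The *Nfia* +353.1 kb region (chr4:98130656-98131156) ranked at 0, 8.85 and 0 at E11.5, at 55.5, 63.8 and 53.0 at E17.5, and at 0 in the 3 EPDC libraries. It rose by 54.5 points (SE 5.41, adjusted p = 8.78e-05). The *Nfia* +108.1 kb region (chr4:97885670-97886170) was called in the E17.5 libraries alone, at 47.3, 53.9 and 50.1, and rose by 50.4 points (SE 4.67, adjusted p = 6.27e-05). Here 26 to 46 fragments stood at 6.94 to 7.54 times the background.

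At *Nfib* 1 of the 2 largest rises depended on how summits were placed. The *Nfib* +168.4 kb region (chr4:82336666-82337166) was at 0 in E11.5 and EPDC libraries and at 29.2, 51.3 and 52.2 at E17.5, a gain of 44.2 points (SE 6.69, adjusted p = 0.000921). The *Nfib* +57.2 kb region (chr4:82447833-82448333) was likewise called at E17.5 alone, at 42.7, 32.5 and 56.6. There the intervals of all 6 other lists covered the region with percentiles of 87.9 to 93.7, and the difference changed from 43.9 to -10.2 points when intervals were matched (adjusted p = 0.00102).

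*Nfic* gained most at the *Nfic* +2.3 kb region (chr10:81424597-81425097), in an intron. It was at 0 in all E11.5 libraries, at 58.8, 66.2 and 58.1 at E17.5, and at 25.1, 58.7 and 60.6 in EPDCs, and rose by 61.0 points at E17.5 (SE 9.18, adjusted p = 0.000907). A larger rise near *Nfic* was at the promoter of *Hmg20b* (chr10:81349063-81349563), which was at 0 in the E11.5 and EPDC libraries and at 47.3, 76.9 and 65.8 at E17.5. That rise of 63.3 points (SE 7.32, adjusted p = 0.000215) was lost when ranked by fold enrichment (adjusted p = 0.0584). Falls at *Nfic* were led by the *Nfic* -50.5 kb region inside *Celf5*, from 55.8, 50.6 and 36.9 to 0, 1.00 and 17.47 (-41.6 points, SE 7.74, adjusted p = 0.00284), not called with equal peak numbers (adjusted p = 0.105).

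A pair of intronic *Nfix* regions 31.6 kb apart went opposite ways between the stages. The *Nfix* +55.9 kb region (chr8:84743947-84744447) ranked at 77.2, 82.3 and 83.97 at E11.5, at 0, 29.0 and 15.9 at E17.5, and at 82.2, 82.1 and 81.0 in EPDCs. It fell at E17.5 by 66.2 points (SE 6.70, adjusted p = 0.000108) and was 33.7 points higher in EPDCs than in epicardium (SE 5.80, adjusted p = 0.00177). The *Nfix* +87.6 kb region (chr8:84712323-84712823) ranked at 14.95, 15.8 and 43.1 at E11.5, at 70.9, 76.2 and 74.6 at E17.5, and at 78.1, 86.5 and 88.3 in EPDCs. It rose at E17.5 by 49.3 points (SE 7.37, adjusted p = 0.000877) and in EPDCs by 35.0 points (SE 6.38, adjusted p = 0.00241), with every EPDC library above every epicardial one. At the first region EPDC values lay within the E11.5 range, and at the second above the E17.5 range.

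**Figure D4:**
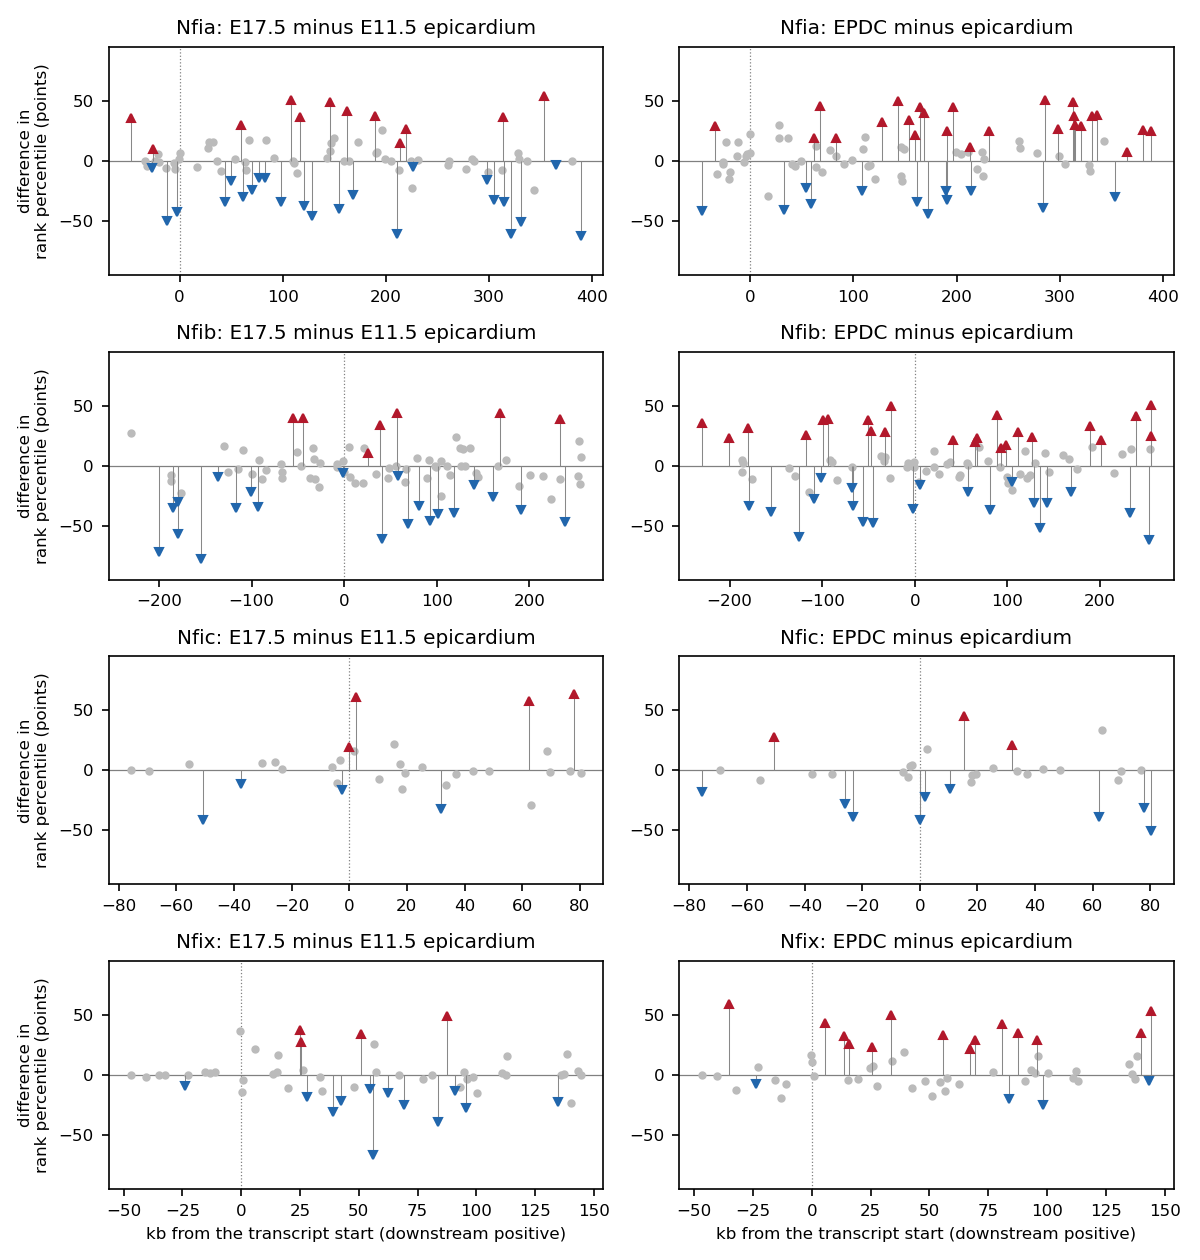
Difference in rank percentile (y axis, points) of each tested region by its distance from the start of the gene's first-numbered transcript (x axis, kb, downstream positive), for stage (left) and EPDCs (right); triangles passed at an adjusted p of 0.05 and grey points did not. The lowest stage value, -77.7 points, lies 155.1 kb upstream at Nfib, and called regions of both directions occur along each gene.

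In EPDCs against the mean of both epicardial stages, called rises outnumbered falls at *Nfia*, *Nfib* and *Nfix*, and falls outnumbered rises at *Nfic*. Of 270 regions, 65 rose (24.1%, against 18.8% of all regions) and 45 fell (16.7%, against 22.1%). Because the comparison is with the mean of both stages, a region that differs between the stages can be called here too. *Nfib* -155.1 kb was called lower (-38.9 points), although its E17.5 and EPDC libraries were all at 0. *Nfia* +388.8 kb was called higher (24.6 points), although its EPDC mean of 56.0 was below its E11.5 mean of 62.8. How many of the 65 and 45 calls are of this kind was not counted. By gene, 25 rose and 12 fell at *Nfia* (28.4% and 13.6%), and 23 and 20 at *Nfib* (24.5% and 21.3%). At *Nfic* 3 rose and 9 fell (9.09% and 27.3%), and at *Nfix* 14 and 4 (25.5% and 7.27%). Over the 4 genes, 64 rose (23.7%) and 37 fell (13.7%) with equal peak numbers, where 16.2% of all regions rose and 18.1% fell. Under both settings 54 of the rises and 35 of the falls were called. No test compared the genes with each other.

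Among *Nfia* introns, EPDCs had regions that no epicardial list held. The *Nfia* +285.4 kb region (chr4:98062988-98063488) was at 0 in all 6 epicardial libraries and at 31.1, 55.1 and 65.7 in EPDCs, a gain of 50.6 points (SE 7.06, adjusted p = 0.000577). The *Nfia* +164.5 kb region was also at 0 in epicardium and reached 36.1, 47.7 and 51.8 in EPDCs (45.2 points, SE 4.74, adjusted p = 0.000111). The *Nfia* +143.1 kb region ranked at 0, 29.7 and 0 at E11.5, at 8.92, 13.1 and 15.3 at E17.5, and at 45.4, 65.4 and 72.4 in EPDCs (49.9 points, SE 8.51, adjusted p = 0.00170). These 3 regions lie between 143.1 and 285.4 kb into the gene.

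The reverse also occurred at *Nfia*. The *Nfia* +172.7 kb region (chr4:97950236-97950736) ranked at 43.9, 49.5 and 50.7 at E11.5, then 61.1, 75.3 and 56.2 at E17.5, but at 10.2, 0 and 25.6 in EPDCs. It fell by 44.1 points (SE 6.84, adjusted p = 0.00102). Upstream, the *Nfia* -47.0 kb region ranked at 27.8, 11.9 and 33.6 at E11.5, at 61.5, 61.3 and 57.5 at E17.5, and at 0, 0 and 0.757 in EPDCs. It rose at E17.5 by 35.7 points (SE 6.48, adjusted p = 0.00239) and fell in EPDCs by 42.0 points (SE 5.61, adjusted p = 0.000425). The *Nfia* +32.8 kb region was called in all 6 epicardial libraries, from 24.0 to 59.9, and in none of the EPDC libraries.

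Downstream of *Nfib*, neighbouring regions 1.8 kb apart went opposite ways in EPDCs. The *Nfib* +253.1 kb region (chr4:82251948-82252448) ranked at 80.6, 84.6 and 80.03 at E11.5, then 74.0, 76.7 and 70.0 at E17.5, against 27.6, 0 and 18.9 in EPDCs. Fragments at the summit numbered 70 to 127 in epicardium, and 30 and 85 in the 2 EPDC libraries that called it. It fell by 62.2 points (SE 5.82, adjusted p = 6.85e-05), the largest EPDC fall at the 4 genes. The *Nfib* +254.9 kb region (chr4:82250167-82250667) ranked at 26.1, 27.2 and 16.8 at E11.5, at 0, 5.54 and 18.4 at E17.5, and at 55.3, 67.7 and 75.7 in EPDCs. Its gain of 50.6 points (SE 6.48, adjusted p = 0.000366) was 19.5 points and did not pass when intervals were matched (adjusted p = 0.0721).

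Between the 2 *Nfib* starts, the *Nfib* -125.5 kb region (chr4:82630533-82631033) was called in every epicardial library, at 58.6, 59.3 and 67.6 at E11.5, then 40.8, 66.3 and 61.7 at E17.5, and in no EPDC library. It fell by 59.0 points (SE 6.27, adjusted p = 0.000134). The *Nfib* -25.8 kb region (chr4:82530879-82531379), inside the annotated gene *Gm11266*, was at 0 at E11.5, at 0, 2.04 and 5.19 at E17.5, and at 28.8, 56.5 and 67.4 in EPDCs, and rose by 49.7 points (SE 7.74, adjusted p = 0.00105). Inside the gene, the *Nfib* +135.7 kb region was called at 36.7 to 64.9 in epicardium and at 0 in EPDCs (-52.1 points, SE 6.24, adjusted p = 0.000250).

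At *Nfic* no region rose in EPDCs with all 3 libraries above all 6 epicardial ones. The largest fall was at the *Nfic* +80.3 kb region (chr10:81346609-81347109), inside *Hmg20b*, from 74.4, 78.6 and 76.8 at E11.5, then 70.1, 77.4 and 75.9 at E17.5 to 22.5, 26.4 and 26.8 (-50.3 points, SE 3.45, adjusted p = 1.15e-05). Both sides of *Nfic* hold other genes, and 14 of its 39 regions lay at their promoters, so these values cannot be given to *Nfic* alone.

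Downstream of *Nfix*, a region was called in EPDC libraries alone. Of the 59 regions assigned to *Nfix*, 12 lay at promoters of other genes, so values in its window cannot be given to *Nfix* alone. The *Nfix* +144.4 kb region (chr8:84655520-84656020) was at 0 in all 6 epicardial libraries and at 63.7, 50.8 and 44.4 in EPDCs, a gain of 53.0 points (SE 5.08, adjusted p = 6.90e-05). The *Nfix* +98.4 kb region at the promoter of *Lyl1*, a gene of blood and endothelial progenitors, fell in EPDCs by 24.7 points (SE 6.04, adjusted p = 0.0108), from 67.9, 74.7 and 83.1 at E11.5, then 64.8, 82.5 and 72.5 at E17.5 to 61.2, 37.7 and 49.8.

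Regions called in every library of one side and in none of the other were counted separately. Of 270 regions, 30 were called at 1 stage only (17.8% of all regions were). Of these, 10 were called at E17.5 (3.70%, against 5.27% of all regions) and 20 at E11.5 (7.41%, against 12.52%). In EPDCs 9 were called that no epicardial library held (3.33%, against 3.87%), and 6 were called in all 6 epicardial libraries and in no EPDC library (2.22%, against 2.54%), of which 5 were at *Nfib* and 1 at *Nfia*. The EPDC gains comprised 4 at *Nfia*, 2 at *Nfib* and 3 at *Nfix*. Of the 315 regions, 103 were called in all 9 libraries (32.7%, against 24.7% of all regions).

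**Figure D5:**
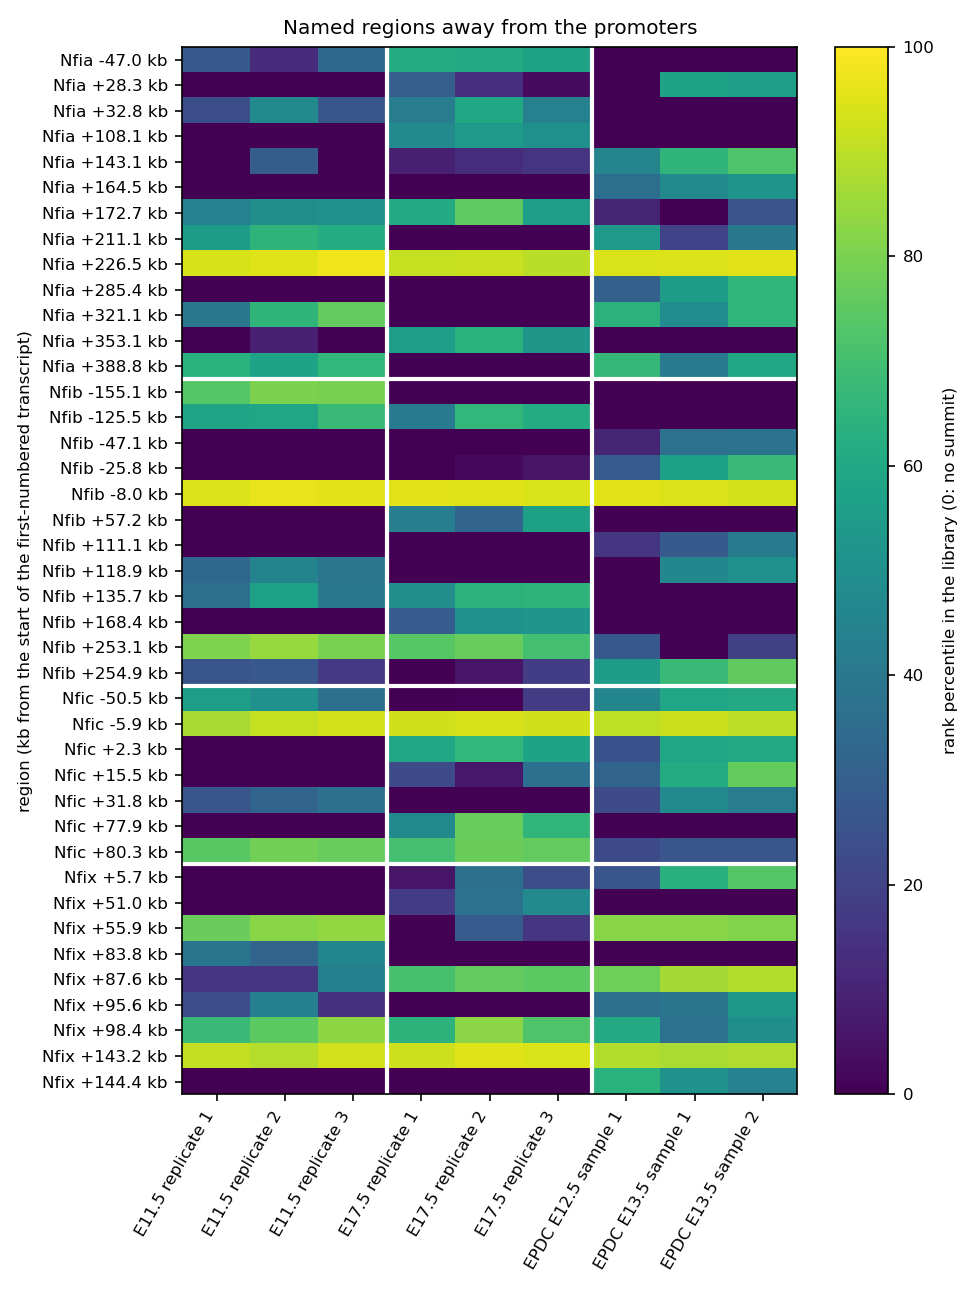
Rank percentile (colour, 0 where no summit was called) of the regions named and away from promoters, 1 row per region and 1 column per library; rows give the distance from the start of the gene's first-numbered transcript. The Nfib -155.1 kb row is called in the E11.5 columns alone, from 73.6 to 80.2, and the Nfib -125.5 kb row in the 6 epicardial columns alone.

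Outside the promoters of any gene, the regions of highest mean rank at each gene differed by less than 5 points between the groups compared. At promoters of other genes ranks were higher still, with group means of 99.0 to 99.3 at *Nfic* -69.3 kb and of 99.6 to 99.9 at *Nfix* -46.9 kb, and neither comparison passed at these. At *Nfib* the -8.0 kb region (chr4:82513071-82513571), which also lies inside *Gm11266*, ranked from 93.7 to 96.6 in the 9 libraries, and neither comparison passed. At *Nfic* the -5.9 kb region ranked from 86.9 to 94.0, again with neither comparison passing. At *Nfia* the +226.5 kb region (chr4:98004076-98004576) ranked from 89.6 to 97.7 and fell at E17.5 by 4.57 points (SE 1.12, adjusted p = 0.0114), a call lost with equal peak numbers (adjusted p = 0.0669). The *Nfix* +143.2 kb region ranked from 87.2 to 95.1 and fell in EPDCs by 4.56 points (SE 1.08, adjusted p = 0.00943), also lost with equal peak numbers (adjusted p = 0.0604). It lies 1.1 kb from the +144.4 kb region that only EPDC libraries called.

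What the regions hold in sequence differed between the genes. Median GC content was 43.5% at *Nfia* and 45.1% at *Nfib*, against 60.5% at *Nfic*, 57.9% at *Nfix* and 48.3% over all regions. TEAD letters were found in 40.7% of *Nfib* regions and 15.3% of *Nfix* regions (33.1% of all regions), and GATA letters in 34.5% and 5.08% (29.8% of all). Among the regions that rose at E17.5, 15 of 27 held a nuclear factor I half-site (55.6%), where 40.3% of all regions rising at E17.5 did. Of the 60 that fell, 17 held one (28.3%, against 25.9%). AP-1 letters were present in 5 of 65 regions that rose in EPDCs (7.69%) and in 13 of 45 that fell (28.9%), against 17.1% and 34.1% of all regions called in those directions. The T-box letters were found in 6 of the 315 regions (1.90%, against 1.97%). These shares describe letters and were not tested.

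A list of 12 genes, described in other tissues as regulators, partners or targets of the family, was counted by the same rule. The genes were *Sox9*, *Junb*, *Ezh2*, *Gfap*, *Fabp7*, *Apcdd1*, *Mmd2*, *Zcchc24*, *Eno3*, *Ckm*, *Nfatc4* and *Mstn*. Of their 194 tested regions, 17 rose at E17.5 (8.76%) and 39 fell (20.1%), with a median difference of -2.71 points. In EPDCs 32 rose (16.5%) and 36 fell (18.6%), with a median of -1.47 points. These shares lie near those of all regions. *Mmd2*, which NFIA and SOX9 activate in glial progenitors, had 9 of 17 regions fall at E17.5 and none rise, and *Zcchc24* had 8 rise and 9 fall of 43. *Gfap*, the astrocyte filament gene, had 1 fall of 13.

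Across the 9 libraries, the genes whose share of summits followed *Nfia* most closely among 10541 were *Prnp* (Pearson r = 0.966), *Igfbp7* (0.962) and *Nploc4* (0.947). For *Nfib* they were *Bhlhe40* (0.960), *Dyrk3* (0.959) and *Ahcyl2* (0.957). *Nfic* was followed by *Hcfc1* (0.964), *Commd1* (0.953) and *Spaca4* (0.950), and *Nfix* by *Hist1h2bg* (0.978), *Acot3* (0.962) and *Homez* (0.962). Between family members r ran from 0.0104 for *Nfia* and *Nfib* to 0.775 for *Nfic* and *Nfix*. The 9 points share their libraries, list lengths and depth, and the values are descriptions of likeness.

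The window set which regions were counted. The outermost region inside it at *Nfia* lay 47.8 kb from the gene (mean percentiles of 62.8 at E11.5, 0 at E17.5 and 56.0 in EPDCs), and the first outside lay at 61.7 kb (86.1, 40.8 and 92.5). For *Nfib* these were at 40.4 kb (32.0, 39.5 and 60.3) and 55.4 kb (36.9, 7.30 and 21.1). At *Nfic* they lay at 49.3 kb (76.6, 74.5 and 25.2) and 52.9 kb (11.8, 42.5 and 38.5), and at *Nfix* at 46.7 kb (99.8, 99.9 and 99.6) and 52.2 kb (86.4, 71.1 and 78.3).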

How the data were processed

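According to the methods and the labels, nuclei of sorted cells were tagmented, reads were aligned to mm10 and duplicate and blacklisted reads removed by the authors with the nf-core atacseq pipeline. Peaks were called by the authors with MACS2 2.2.9.1 on fragment pairs, per library, keeping each summit of an interval. The deposited lists give for each summit a fold enrichment over local background (a ratio) and a -log10 p and -log10 q. The deposited -log10 q values start at 2.00. Nothing was normalized between libraries, and depth is known only through the fragments at each summit, solved from the fold and the -log10 p (all 2188 summits at the 4 genes gave a number within 0.05 of a whole one).

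Summits on chromosomes 1 to 19, X and Y were extended by 250 bp and overlapping windows removed in order of depth-normalized score. A region's value was the percentile of its strongest summit, and 0 without one. Regions called in at least 2 libraries (154147) were tested by limma 3.58.1 (trend and robust options, R 4.3.3) over all 9 libraries, for E17.5 against E11.5 epicardium and for EPDCs against the mean of both stages, with Benjamini-Hochberg adjustment over all regions at 0.05. Single values were tested by two-sided exact permutation (20 assignments, smallest p 0.10, for 3 against 3; 84, smallest p 0.0119, for 3 against 6). In libraries simulated for E17.5 against E11.5 with 154147 regions, 10000 regions were shifted by 15 points and 10000 by 40 points. Of these, 5.76% and 67.4% were found, with 372 calls among regions not shifted. Values were drawn as normal around a single mean per region, and only regions of low to middle mean were shifted. The real values hold many zeros and gave more calls, so these shares are not the power of the real test.

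Start sites came from GENCODE M21, which counts Nfib-212 and Nfia-208, and sequences from GRCm38.p6 and RefSeq, whose 6 promoter records for these genes equal the genome. Named regions were, per gene, all promoters, up to 2 regions of largest difference per comparison and direction among those called without overlap, up to 2 called on one side only by highest mean, and the distal region of highest mean away from all promoters (the last limit was added to the rule after the values were seen). Of these, 1 is not reported here. The members, lists and rules were chosen with earlier results of these data known. The alternatives were a stricter list (-log10 q from 5 up), the same number of top peaks from each list, ranking by fold enrichment, log2 of the score, interval overlap, other filters on libraries, a window of 20 kb, a block for the replicate number and leaving out each library in turn. Python 3.11.15, numpy 2.4.6, pandas 2.3.3, scipy 1.17.1 and matplotlib 3.10.9 were used.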

Additional observations from a re-analysis of the deposited data

How the results depend on the processing

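The 27 rises at E17.5 became 48 with equal peak numbers, 46 on the log2 score, 4 among regions called in all 9 libraries (fewer tested) and 10 with the replicate block. The 60 falls became 37 at -log10 q of at least 5, 23 with equal peak numbers, 26 among regions called in all 9 libraries and 23 with the replicate block. Leaving out each library gave 23 to 31 rises and 35 to 55 falls at E17.5. In EPDCs the 65 rises became 22 and the 45 falls 16 among regions called in all 9 libraries, and leaving out each library gave 46 to 74 rises and 34 to 51 falls. Other settings, the 20 kb window of 276 regions included, kept all 4 counts within 1.5 times. Apart from the smaller number of regions called in all 9 libraries, the cause of these shifts was not tested. Same-numbered epicardial replicates did not deviate together (correlations of -0.0315 to 0.0405), so the numbers pair nothing. Over all regions the block on the 6 epicardial libraries called 8484 higher and 22073 lower, against 13075 and 34146 without it. The block left the differences per gene as they were, with p = 0.25, the smallest it allows by exact sign changes.

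Summits per 10000 kept their direction except at *Nfib*, where the EPDC difference of -0.387 became 0.0702 with equal peak numbers, and at *Nfic*, where 0.149 became -0.127 without the E12.5 EPDC sample (range -0.127 to 0.424 over libraries left out). At *Nfix* the EPDC difference ran from 0.120 to 0.871 over libraries left out and passed at 0.871. None of these 3 passed otherwise. Of 116 differences at named regions, 27 changed sign under at least 1 setting, 54 times in all, and in 49 of these neither value passed. The other 5 came with intervals matched: *Nfib* +57.2 kb (-10.2 points for stage, 0.756 for EPDCs), *Nfic* -4.1 kb (39.99 for EPDCs), *Nfix* +0.2 kb and *Nfix* +0.8 kb (12.8 for stage in both). The rest are given by distance in kb and new value in points, stage first. Intervals also turned *Nfib* +254.9 (14.4), *Nfic* -4.1 (31.9) and *Nfic* -3.4 (-3.85), then for EPDCs *Nfib* -0.5 (2.21), *Nfic* -3.4 (-0.265) and *Nfix* +0.8 (4.42). Equal peak numbers turned *Nfib* +254.9 (0.182), *Nfib* -125.5 (4.14), *Nfic* +80.3 (3.48), *Nfix* +0.8 (6.47) and *Nfix* +98.4 (4.37), then for EPDCs *Nfix* +24.9 (-1.58) and *Nfix* +0.8 (3.81). Fold enrichment turned *Nfia* +143.1 (-4.36), *Nfic* -3.4 (-0.182), *Nfic* -5.9 (-2.78), *Nfix* +26.1 (-3.68) and *Nfix* +98.4 (4.99), then for EPDCs *Nfia* +211.1 (-1.57), *Nfia* +226.5 (-3.27), *Nfib* -0.5 (4.08), *Nfic* -5.9 (6.13) and *Nfix* +0.8 (5.57). The log2 score, in log2 units, turned *Nfia* -5.5 (0.0345), *Nfib* -8.0 (0.212), *Nfic* +80.3 (0.114) and *Nfix* +98.4 (0.140), then for EPDCs *Nfia* -5.5 (0.0158) and *Nfib* -8.0 (0.0165). The stricter q turned *Nfia* +143.1 (-3.44). Leaving out each library gave ranges on both sides of 0 for stage at *Nfia* -0.5 (-7.49 to 13.2), *Nfia* 0.0 (-4.84 to 15.4), *Nfia* +143.1 (-2.40 to 12.4), *Nfib* -125.5 (-10.6 to 2.17), *Nfic* +80.3 (-3.59 to 0.0454), *Nfix* +0.2 (-25.96 to 6.71), *Nfix* +0.8 (-9.92 to 0.834) and *Nfix* +98.4 (-6.56 to 2.27). It did so for EPDCs at *Nfia* +211.1 (-0.0535 to 16.96), *Nfib* -0.5 (-3.06 to 2.08), *Nfic* -3.4 (-0.146 to 7.42), *Nfix* +24.9 (-0.796 to 16.3) and *Nfix* +0.8 (-9.52 to 4.40). The cause of these sign changes was not tested. Of 62 calls at named regions, 49 held with equal peak numbers, 51 by fold enrichment, 53 at the stricter q, 55 by interval and 60 on the log2 score. With the replicate block 15 of 25 stage calls held. The background ran from 2.07 fragments in E17.5 replicate 1 to 10.9 in E13.5 EPDC sample 2, and its effect on the calling of weak regions was not tested.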
